A study of Homo sapiens with 12 samples.

Results

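The comparison described here is of human tumour cells in 3 xenograft tumours that had been treated with palbociclib and then left to recover, against 3 that had been given vehicle and left to recover. These are 6 of the 12 tumours of the series; the other 6 were taken at the end of treatment. All tumours grew from MCFDCIS, a human cell line, after subcutaneous injection of 1000000 cells into Athymic Nude mice, which lack T cells but keep macrophages, neutrophils and natural killer cells. Tumours had 2 weeks to establish as DCIS (ductal carcinoma in situ) before treatment began. The palbociclib recovery group received 50 mg/kg by daily oral gavage for 2 weeks and was then left to recover, for a time not stated in the labels. The vehicle recovery group had 2 weeks of vehicle and the same kind of recovery. Only genes with human Ensembl identifiers were used. One cell line makes all tumours, and the labels do not say whether 2 tumours shared a mouse, so the p-values reflect the variation among these tumours and no more.

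Palbociclib inhibits the kinases CDK4 and CDK6, which D-type cyclins activate in the G1 phase. Active CDK4 and CDK6 phosphorylate the retinoblastoma protein RB1, which releases E2F factors and lets the cell transcribe the genes of DNA replication and mitosis. Arrest by such inhibitors is usually reversible, and tumours of this basal-like type are surrounded by host stroma that supplies blood and matrix. The comparison asks what still differs in the tumour cells after the drug has been withdrawn.

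TUBBP6, a processed pseudogene of beta-tubulin, was the only gene that passed an adjusted p of 0.05 in edgeR, and it was lower after palbociclib. The proliferation genes that palbociclib lowers at the end of treatment did not pass after recovery, and the wide differences in several gene groups came with 1 vehicle tumour that stands apart. The groups with the lowest medians once that tumour was left out were the genes of the hypoxia response and of glycolysis. No single member passed in edgeR, and the lists were chosen with earlier results of these data known. The metallothionein gene MT1X, the cholesterol exporter ABCA1, the glycolysis gene ENO2 and the collagen gene COL7A1 had lower levels after palbociclib. In each of them every palbociclib recovery tumour lay below every vehicle recovery tumour, as in 5.51% of all tested genes. They were among 20 genes (0.116% of those tested) that passed in DESeq2, which was not run without vehicle recovery tumour 2.

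Sequences of 4 genes that the results turn on are shown first. TUBBP6 (ENSG00000235207) spans chr7:55645620-55646951 on the plus strand of GRCh38 in GENCODE 29, lies between other pseudogenes and has no coding exon. Its transcript aligned to that of TUBB, the most similar protein-coding gene, with 91.8% identity over 1335 bases, with 106 mismatches. The stretch below covers chr7:55645716-55645835 (bases 97 to 216 of the TUBBP6 transcript) beside the matching bases of TUBB. Capitals mark the 6 of 120 bases that differ, so a short read can match both genes or be told apart by a few bases.
TUBBP6: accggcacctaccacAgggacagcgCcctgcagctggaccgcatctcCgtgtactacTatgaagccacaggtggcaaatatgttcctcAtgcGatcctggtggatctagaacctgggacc
TUBB: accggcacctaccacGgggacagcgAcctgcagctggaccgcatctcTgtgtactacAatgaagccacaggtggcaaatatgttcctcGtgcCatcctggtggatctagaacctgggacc

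Promoters from RefSeq (GRCh38.p14) show what is written upstream of genes named below. For CA9 and ENO2 the capitals mark the core of the hypoxia response element (ACGTG or GCGTG, either strand), and for MT1X they mark the core of the metal response element (TGCACNC or TGCGCNC, either strand). The stretches are chr9:35673897-35673926 for CA9, chr12:6914449-6914478 for ENO2 and chr16:56682220-56682423 for MT1X, all on the plus strand. A match describes these letters and is not evidence of binding.
CA9: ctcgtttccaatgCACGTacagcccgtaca
ENO2: cacccgcgctcgtACGTGcgcctccgccgg
MT1X: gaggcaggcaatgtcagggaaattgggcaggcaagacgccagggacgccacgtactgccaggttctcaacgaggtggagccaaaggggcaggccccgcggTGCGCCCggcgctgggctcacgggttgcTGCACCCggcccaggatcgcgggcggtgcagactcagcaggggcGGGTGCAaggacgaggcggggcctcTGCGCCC
Among the 250 bases before the start of 27305 RefSeq genes, 43.1% of promoters held the hypoxia core and 24.7% the metal core. Of the 48 genes tested in the hypoxia and glycolysis lists, 42 had a promoter in the table. The hypoxia core was held by 29 of these (69.0%). This share describes the genes that were listed and is no measure of these tumours. CA9 and ENO2 held 1 match each in those bases, and MT1X held 4.

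The 6 tumours carried between 7655363 and 12352064 counts on human genes. Mouse genes took 19.0 to 21.6% of gene counts in the palbociclib recovery tumours and 14.2 to 18.1% in the vehicle recovery tumours, which do not overlap (two-sided exact permutation test, p = 0.1, the smallest that 3 against 3 allows). In bulk tumours fewer cells of a type and less RNA per cell cannot be told apart. Vehicle recovery tumour 2 stood apart from the other 5. It had 15287 human genes with at least 10 counts, against 16284 to 17954 in the others, although its 12138032 human counts were the second highest. Of 14617 genes with a mean log2 CPM (counts per 1000000 human counts, TMM-scaled) of at least 1, 594 were over 2-fold higher and 1582 over 2-fold lower in it than in the mean of the other 2 vehicle recovery tumours, while 170 differed that much between those 2. Main values below are therefore given with and without vehicle recovery tumour 2.

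The labelled cell type was checked against its markers. All 14 genes listed for the basal-like epithelium of MCFDCIS were measured in every recovery tumour. KRT5, a keratin of basal epithelium, was at 1185 to 1766 CPM and KRT17 at 2935 to 5014 CPM. TP63, the basal lineage factor, was at 50.3 to 211 CPM. Not all of the 14 are basal genes. KRT8 and KRT18, keratins of luminal epithelium, were at 913 to 1479 and 417 to 515 CPM, and CDH1 and EPCAM are general epithelial genes. Of 6 hormone receptor luminal genes, 2 were under 1 CPM and 4 over 1 CPM in every recovery tumour. The progesterone receptor gene PGR was at 0 to 0.0872 CPM, and the oestrogen receptor gene ESR1 was at 3.84 CPM in vehicle recovery tumour 2 and at 14.8 to 31.2 CPM in the other 5. ERBB2 was at 279 to 469 CPM, GATA3 at 14.3 to 22.0 CPM and FOXA1 at 3.16 to 12.4 CPM. Human genes listed as markers of other cell types were in part absent and in part well measured. All 6 lymphocyte, 5 red cell and 6 skeletal muscle genes were under 1 CPM in every recovery tumour, as were 5 of 6 adipocyte genes, 11 of 13 macrophage genes (C1QA, C1QB, C1QC and TYROBP had no count), 5 of 7 neutrophil genes and 5 of 10 endothelial genes. The others include S100A9 at 137 to 220 CPM, CSF1R at 5.01 to 16.6 CPM, CD14 at 3.93 to 11.03 CPM, PECAM1 at 38.8 to 72.9 CPM and KDR at 12.6 to 48.4 CPM. Of the pericyte and smooth muscle genes 4 of 8 were over 1 CPM in all 6 tumours, with CSPG4 at 325 to 1084 CPM and NOTCH3 at 36.0 to 126 CPM. The summed macrophage genes were at 16.6 to 20.3 CPM in the palbociclib group and 16.2 to 21.3 CPM in the vehicle group, the neutrophil genes at 143 to 231 and 173 to 236 CPM, the endothelial genes at 98.9 to 117 and 55.6 to 109 CPM, and the pericyte genes at 499.9 to 970.1 and 788 to 1256 CPM, so all of these ranges overlap. The human cells injected were those of the MCFDCIS line, and the host cells are mouse cells. Whether mouse reads were in part counted on these human genes was not tested. A count of 0 in the shallowest of the recovery tumours allows up to 0.392 CPM, for counting error only. Among fibroblast markers 9 of 11 genes were tested, and their summed level was 296 to 381 CPM in the palbociclib group and 363 to 1338 CPM in the vehicle group, with the highest sum in vehicle recovery tumour 2 and most of it from POSTN.

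TUBBP6 had 0.585, 0.463 and 0.423 CPM in palbociclib recovery tumours 1 to 3 and 3.58, 4.89 and 2.98 CPM in vehicle recovery tumours 1 to 3. The groups did not overlap, and these levels rested on 5 to 7 counts in each palbociclib tumour and 23 to 51 in each vehicle tumour. TUBBP6 fell by 2.93 on the log2 scale (SE 0.35, 95% interval -3.69 to -2.17, edgeR quasi-likelihood test, adjusted p = 0.0171), and without vehicle recovery tumour 2 the log2 fold change was -2.72 (SE 0.38, adjusted p = 0.0229). It was the only call among 18628 genes, 0.00537% of those tested. It did not pass without palbociclib recovery tumours 1, 2 or 3 (edgeR adjusted p = 0.159, 0.246 and 0.254) or without vehicle recovery tumour 1 (0.0614). It also did not pass with only the 6 recovery tumours in the model (0.710) or with the mouse share as a covariate (0.515), where its log2 fold change was still -2.93 and -2.87. At the end of treatment its level was 1.12 ± 0.19 CPM with palbociclib and 2.15 ± 0.52 CPM with vehicle (SD, n = 3), a log2 fold change of -0.90 that did not pass (edgeR adjusted p = 0.326).

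AC091812.1 (ENSG00000231317), an unprocessed pseudogene at chr7:55656768-55678490 on the minus strand of GRCh38, starts within 12 kb of TUBBP6 and had the second smallest p. Its levels were 0.585, 0.741 and 0.677 CPM after palbociclib and 4.45, 6.62 and 3.37 CPM after vehicle. No palbociclib recovery tumour reached the lowest vehicle recovery tumour. The log2 fold change was -2.84 (SE 0.43, edgeR adjusted p = 0.113), and -2.55 without vehicle recovery tumour 2 (adjusted p = 0.114). It passed in limma's voom test with sample quality weights, which called 2 genes (0.0107% of those tested), and in DESeq2, which called 20 (0.116%). Its transcript matched that of AC092447.7, another pseudogene, with 96.8% identity over 1266 bases, so reads of these copies could be shared. TUBB itself had 45.3, 40.9 and 45.5 CPM after palbociclib and 48.3, 86.2 and 51.7 CPM after vehicle, a log2 fold change of -0.50 that was -0.19 without vehicle recovery tumour 2 (edgeR adjusted p = 0.573 with all tumours).

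Tested neighbours of these pseudogenes had values nearer to 0. The pseudogene CDC42P2, which lies beside TUBBP6, had 56 counts over all 12 tumours and was not tested. It was at 0.251, 0.0926 and 0.254 CPM after palbociclib and 0.523, 0.575 and 1.43 CPM after vehicle. Within 500 kb of the TUBBP6 start 14 genes with a symbol were tested, and the 12 besides TUBBP6 and AC091812.1 had log2 fold changes between -1.18 and 0.10, or between -0.49 and 0.08 without vehicle recovery tumour 2. The lowest of them, the pseudogene FKBP9P1, was at 2.84, 1.11 and 4.23 CPM after palbociclib and 3.66, 12.6 and 2.33 CPM after vehicle, and its log2 fold change was -0.15 without vehicle recovery tumour 2. Chromosome medians were between -0.07 and 0.05 for all nuclear chromosomes with at least 20 tested genes.

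**Figure D1:**
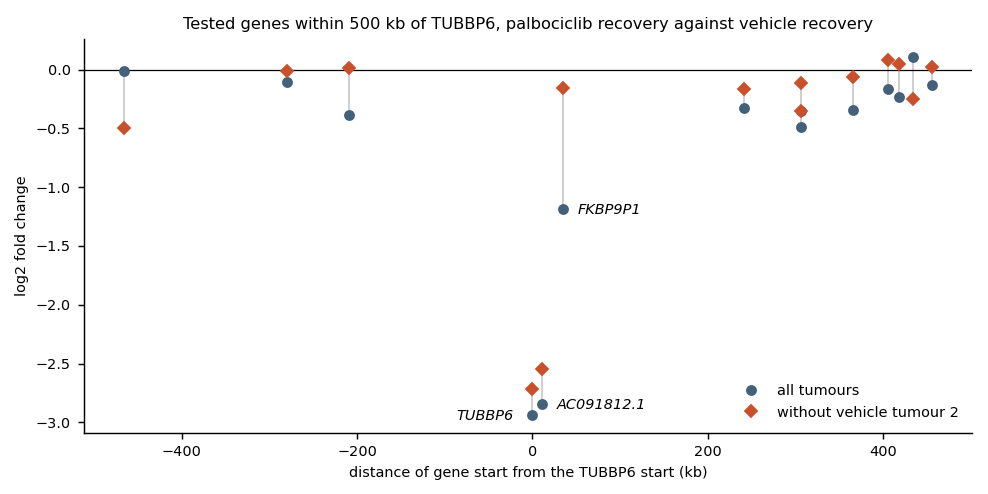
Log2 fold change (vertical) of the 14 tested genes within 500 kb of the TUBBP6 start, against the distance of each gene start in kb; circles use all tumours and diamonds leave out vehicle recovery tumour 2. TUBBP6 and AC091812.1 lie near -2.9 and -2.8, and FKBP9P1 moves from -1.18 to -0.15 when that tumour is left out.

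The cell cycle genes that answer to CDK4 and CDK6 were measured next. MKI67, a marker of cycling cells, was at 178, 186 and 184 CPM in the palbociclib recovery tumours and at 178, 243 and 247 CPM in the vehicle recovery tumours. The groups overlap, and the log2 fold change was -0.29 (95% interval -0.74 to 0.17, edgeR adjusted p = 0.647), or -0.22 (95% interval -0.81 to 0.38) without vehicle recovery tumour 2. At the end of treatment MKI67 had been 40.8 ± 13.9 CPM with palbociclib and 219 ± 46 CPM with vehicle (SD, n = 3). TOP2A, the topoisomerase of dividing cells, was at 181, 176 and 191 CPM after palbociclib and at 207, 300 and 188 CPM after vehicle, with a log2 fold change of -0.34 that was -0.11 without vehicle recovery tumour 2.

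Upstream in the same pathway, CCND1, the cyclin D1 gene, was at 209, 222 and 258 CPM after palbociclib and 229, 242 and 229 CPM after vehicle. Its 95% interval ran from -0.27 to 0.23 on the log2 scale, around -0.02, so a difference of the size measured at the end of treatment, 0.79, lay outside it. Without vehicle recovery tumour 2 the value was 0.00 (95% interval -0.24 to 0.24). CCND3 had a log2 fold change of -0.13 and, without vehicle recovery tumour 2, 0.12. CDK4 was at 39.5, 44.1 and 41.9 CPM after palbociclib and 39.1, 82.8 and 38.0 CPM after vehicle: its log2 fold change of -0.35 rested on vehicle recovery tumour 2 and was 0.12 without it. CDK6 and RB1 went the same way, from -0.34 to -0.10 and from -0.33 to -0.06. CDKN2C, an inhibitor of CDK4 and CDK6, was at 25.8, 25.0 and 28.3 CPM after palbociclib and 25.8, 65.8 and 25.9 CPM after vehicle, and its log2 fold change moved from -0.57 to 0.03. CDKN2A, the inhibitor p16 and ARF gene, had 0 counts in all 12 tumours.

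Of the E2F side, E2F1 was at 11.2 to 13.9 CPM after palbociclib and 11.5 to 13.1 CPM after vehicle, with log2 fold changes of 0.01 and, without vehicle recovery tumour 2, -0.05. The cyclin E genes that drive CDK2 showed log2 fold changes of -0.35 for CCNE1 and 0.08 for CCNE2, and of -0.22 and 0.01 without vehicle recovery tumour 2. CDK2 had -0.28, and -0.04 without it. The inhibitor genes CDKN1A and CDKN1B had log2 fold changes of 0.00 and -0.03 with 95% intervals from -0.38 to 0.39 and from -0.27 to 0.21. Without vehicle recovery tumour 2 they had 0.14 (-0.26 to 0.55) and -0.05 (-0.30 to 0.19). None of these genes passed in either fit.

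The mitotic list of 40 genes, in which no member passed, had a median log2 fold change of -0.38, and all 40 values were below 0. Without vehicle recovery tumour 2 the median was -0.12 with 37 of 40 below 0, beside a median of 0.00 over all genes tested in both fits. The lowest unadjusted p values were those of TTK, KIF2C and AURKB, which act in the spindle checkpoint, in microtubule depolymerization and in chromosome segregation. TTK was at 30.4, 25.2 and 32.3 CPM after palbociclib and 40.5, 56.7 and 32.8 CPM after vehicle (log2 fold change -0.57, edgeR adjusted p = 0.573; -0.33 without vehicle recovery tumour 2). Of the 40 genes, 17 had every palbociclib tumour below every vehicle tumour, where 5.51% of all tested genes did. The replication list of 42 genes had a median of -0.20, and of -0.01 without vehicle recovery tumour 2, when 24 of 42 were below 0. With the mouse share as a covariate these medians were -0.14 and 0.02. For scale, the mitotic and replication medians at the end of treatment were -1.88 and -0.81. The difference between the stages was not tested here.

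**Figure D2:**
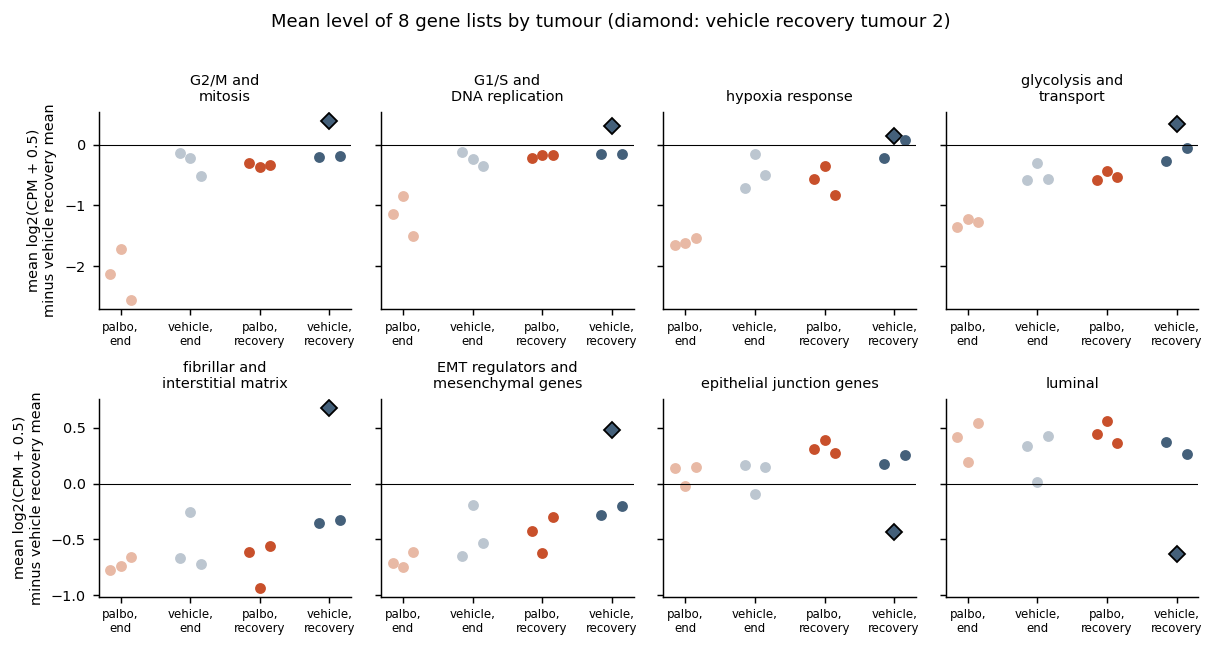
Mean level of 8 gene lists in each of the 12 tumours (log2 of CPM plus 0.5, averaged over the list and set against the vehicle recovery mean), by group; the diamond is vehicle recovery tumour 2. The mitotic list lies at -2.56 to -1.72 in tumours at the end of palbociclib and at -0.37 to -0.30 after recovery, and vehicle recovery tumour 2 is the highest of its group in 6 panels and the lowest in the epithelial junction and luminal panels.

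The hypoxia response list had the lowest median without vehicle recovery tumour 2 of the 32 lists. These are genes that HIF factors activate at low oxygen. No member passed in edgeR or DESeq2, but 25 of 26 log2 fold changes were below 0 with all tumours and 26 of 26 without vehicle recovery tumour 2, with medians of -0.60 and -0.52. Leaving out any 1 of the 6 recovery tumours gave medians from -0.76 to -0.51, and the mouse share as a covariate gave -0.63. An unadjusted p under 0.05 with a lower value was found for 17 of 26 members, against 5.45% of all tested genes (and 3.21% with a higher value), and without vehicle recovery tumour 2 for 12 of 26, against 2.18% (and 1.51% higher). List members were chosen with earlier results of these data known, so these shares and the rank only describe the list. The edgeR adjusted p was at least 0.573 for CA9, BNIP3 and ERO1A, the members with the smallest p.

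CA9, the carbonic anhydrase that carries the hypoxia element shown above, was at 8.27, 14.1 and 5.67 CPM after palbociclib and at 14.0, 30.3 and 23.3 CPM after vehicle. Its groups overlap by a narrow margin at palbociclib recovery tumour 2 and vehicle recovery tumour 1. The log2 fold change was -1.27 (SE 0.32), or -0.99 (SE 0.32) without vehicle recovery tumour 2. BNIP3, which drives the removal of mitochondria, was at 69.5, 83.0 and 51.4 CPM against 92.9, 123 and 103 CPM (log2 fold change -0.65; -0.53 without that tumour). ERO1A, an oxidase of the endoplasmic reticulum, was at 133, 171 and 126 CPM against 224, 259 and 239 CPM (-0.75; -0.69). VEGFA, the angiogenic growth factor, was at 355, 398 and 231 CPM against 457, 591 and 659 CPM (-0.80; -0.77). In BNIP3, ERO1A and VEGFA no palbociclib tumour reached the lowest vehicle tumour, and palbociclib recovery tumour 3 was the lowest of the 6 tumours in all of them. DDIT4 and TMEM45A were the members nearest to 0 without vehicle recovery tumour 2, at 0.00 and -0.04.

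Glycolysis genes gave the second lowest median without vehicle recovery tumour 2, while with all tumours 6 lists, hypoxia among them, had lower ones. Of 22 members, 21 were below 0 with all tumours and 22 without vehicle recovery tumour 2, with medians of -0.40 and -0.30. Medians without any 1 recovery tumour ran from -0.54 to -0.30, and the median with the mouse share as a covariate was -0.45. ENO2, an enolase, was at 25.1, 27.2 and 22.4 CPM after palbociclib and at 41.4, 66.1 and 70.9 CPM after vehicle. Its groups did not overlap, and the log2 fold change was -1.25 (SE 0.28, edgeR adjusted p = 0.573), or -1.17 (SE 0.34) without vehicle recovery tumour 2. DESeq2 called it (adjusted p = 0.0219), and no other glycolysis gene. SLC2A1, the glucose transporter GLUT1, was at 255, 285 and 262 CPM against 376, 647 and 452 CPM (log2 fold change -0.88; -0.63 without that tumour). PFKFB3, which sets the rate of glycolysis through fructose 2,6-bisphosphate, was at 137, 132 and 142 CPM against 186, 295 and 211 CPM (-0.75; -0.53). SLC16A3, the lactate exporter MCT4, was at 158, 143 and 129 CPM against 171, 252 and 223 CPM (-0.58; -0.45). The abundant enzymes had smaller values: GAPDH, ENO1 and PKM had values of -0.32, -0.22 and -0.40, and -0.16, -0.07 and -0.09 without vehicle recovery tumour 2.

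At the end of treatment the medians of the same hypoxia and glycolysis lists were -1.06 and -0.62. ENO2 was then at 5.08 ± 0.88 CPM with palbociclib and 32.4 ± 13.3 CPM with vehicle, and CA9 at 1.53 ± 0.24 and 11.8 ± 2.4 CPM (SD, n = 3). After recovery ENO2 was at 24.9 ± 2.4 and 59.5 ± 15.8 CPM and CA9 at 9.34 ± 4.30 and 22.5 ± 8.2 CPM. In the recovery tumours the mouse share was higher in the palbociclib group, as given above; its part in the hypoxia and glycolysis values was examined only through the covariate.

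**Figure D3:**
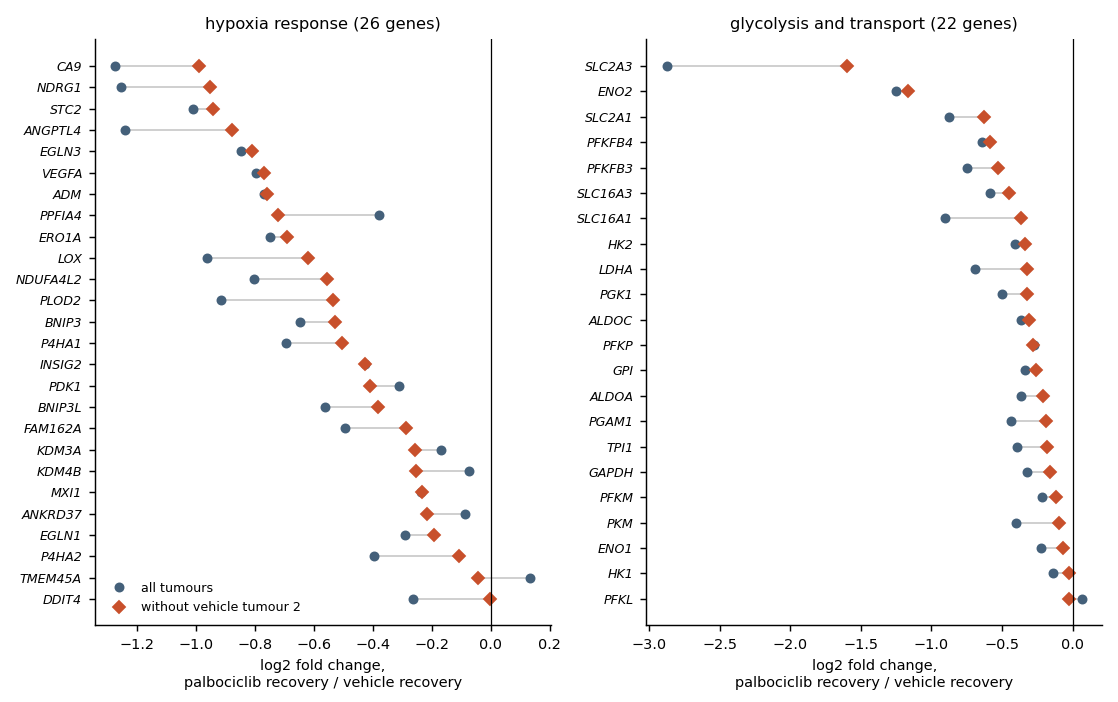
Log2 fold change (horizontal) of the 26 hypoxia response genes and the 22 glycolysis and transport genes; circles use all tumours, diamonds leave out vehicle recovery tumour 2, and the vertical line is 0. All diamonds lie below 0, and with all tumours TMEM45A and PFKL lie above it at 0.13 and 0.06.

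Metallothioneins, small proteins that bind zinc and copper, were gathered after their values were seen, so their direction is only a description. Of 12 annotated genes 4 passed the low-count filter, and all 4 had every palbociclib tumour below every vehicle tumour, as did 5.51% of all tested genes. MT1X (ENSG00000187193), whose promoter is printed above, was at 4.68, 3.70 and 3.55 CPM after palbociclib and at 9.68, 10.4 and 9.60 CPM after vehicle. The vehicle tumours lay close together here, vehicle recovery tumour 2 included. The log2 fold change was -1.31 (SE 0.25, edgeR adjusted p = 0.548), and -1.27 without that tumour (adjusted p = 0.666). MT2A was at 127, 80.7 and 77.4 CPM against 189, 492 and 189 CPM, with log2 fold changes of -1.61 and, without vehicle recovery tumour 2, -0.99. MT1E and MT1F had -1.80 and -0.97, and -1.30 and -1.03 without it. The coding sequences of these genes are closely alike, so the counting may have split reads between them. DESeq2 called MT1X, MT2A and MT1E, beside 0.116% of all genes it tested.

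ABCA1 (ENSG00000165029), which exports cholesterol from cells, was at 3.01, 2.68 and 3.38 CPM after palbociclib and 6.46, 14.0 and 7.26 CPM after vehicle. No palbociclib tumour reached the vehicle tumours, and the log2 fold change was -1.61 (SE 0.30, edgeR adjusted p = 0.548), or -1.17 (SE 0.25, adjusted p = 0.786) without vehicle recovery tumour 2. ABCG1 and MYLIP, which the sterol-sensing LXR receptors also activate, had log2 fold changes of 1.01 and 0.72, and 0.59 and 0.53 without that tumour. The sterol list as a whole had a median of 0.07 in both fits. At the end of treatment ABCA1 was at 3.27 ± 0.46 CPM with palbociclib and 2.98 ± 0.54 CPM with vehicle (SD, n = 3).

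**Figure D4:**
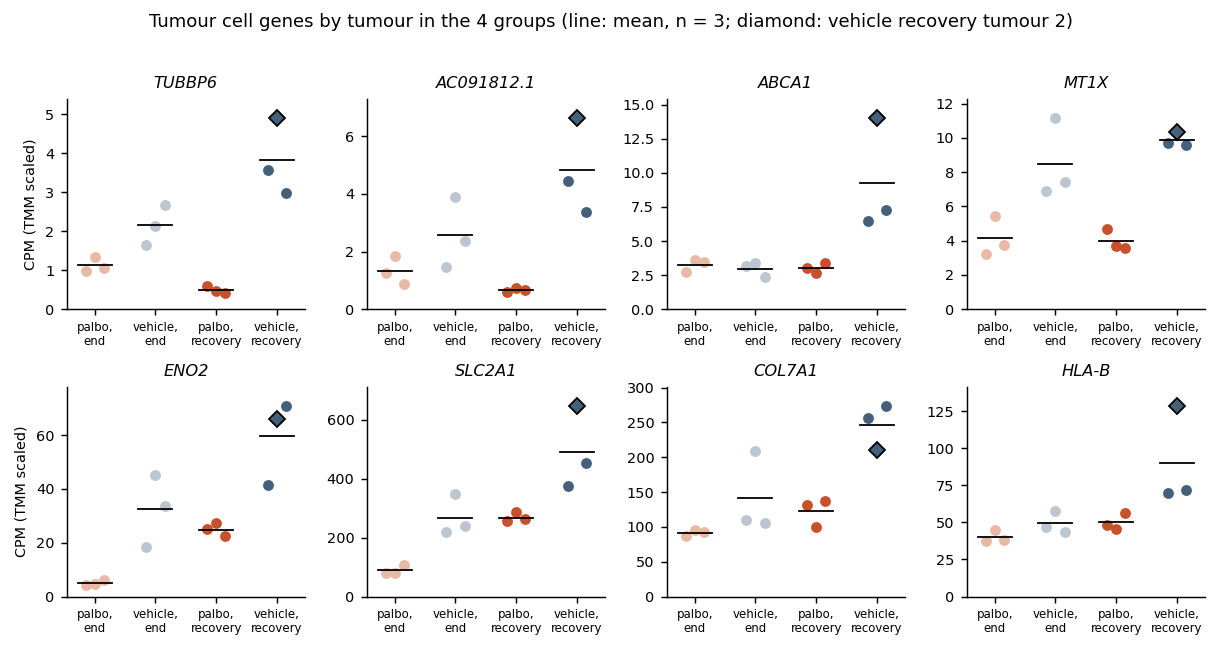
Level of 8 genes (CPM, vertical, from 0) in each tumour of the 4 groups, with the group mean as a line (n = 3); the diamond is vehicle recovery tumour 2. In TUBBP6, AC091812.1, ABCA1, MT1X, ENO2, SLC2A1, COL7A1 and HLA-B the 3 palbociclib recovery tumours lie below the 3 vehicle recovery tumours.

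Several genes with low counts were among those with the smallest p values. F2RL2, a thrombin receptor family member, was at 0.752, 0.278 and 0.254 CPM against 1.57, 8.73 and 2.46 CPM, and EPHA3, an ephrin receptor, at 0.752, 0.741 and 0.0846 CPM against 2.44, 4.22 and 2.08 CPM. UNC5A, a netrin receptor, was at 0.668, 0.185 and 0.592 CPM against 3.05, 6.14 and 1.43 CPM. Their log2 fold changes were -3.27, -2.46 and -2.85, and -2.16, -2.10 and -2.21 without vehicle recovery tumour 2. In the palbociclib tumours these 3 genes rested on 1 to 9 counts. ZNF503, a transcriptional repressor, was at 6.02, 4.54 and 4.57 CPM against 9.33, 16.2 and 9.73 CPM (-1.22; -0.91). All of them were called by DESeq2 and none by edgeR, with edgeR adjusted p values between 0.548 and 0.573.

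Other genes had higher levels after palbociclib. F5, the gene of coagulation factor V, was at 22.4, 21.4 and 32.3 CPM after palbociclib and 14.6, 2.88 and 15.04 CPM after vehicle, and its log2 fold change of 1.24 was 0.78 without vehicle recovery tumour 2 (edgeR adjusted p = 0.573 and 0.816). DCD, the antimicrobial peptide dermcidin, was at 19.8, 11.5 and 14.6 CPM against 7.85, 1.34 and 3.24 CPM (1.86; 1.41). SPINK5, a protease inhibitor of squamous epithelium, was at 3.43, 1.85 and 6.18 CPM against 1.74, 0.479 and 1.17 CPM (1.74; 1.36). FOXA1, a luminal lineage factor, was at 10.3, 12.4 and 10.3 CPM against 8.11, 3.16 and 5.58 CPM (0.96; 0.66). None passed. Across all genes tested, 6.32% had every palbociclib tumour above every vehicle tumour.

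Matrix, mesenchymal and epithelial lists had smaller medians without vehicle recovery tumour 2. In the fibrillar matrix, basement membrane, protease and mesenchymal lists the mean levels of all 3 palbociclib tumours still lay below those of vehicle recovery tumours 1 and 3. This order was found in 11 of the 32 lists, that of receptor tyrosine kinases and ligands among them. The fibrillar matrix list had a median of -0.67 over 22 tested genes, and of -0.28 without that tumour. POSTN, the matrix protein periostin, was at 207, 192 and 185 CPM against 331, 1154 and 266 CPM, and its log2 fold change moved from -1.58 to -0.62. POSTN is also a fibroblast marker. Of the other markers in that list COL3A1 was at 67.4 to 151 CPM in the recovery tumours, and COL1A2 was at 32.6 CPM in vehicle recovery tumour 2 and at 0.278 to 2.18 CPM in the others. DCN was at 2.70 to 5.08 CPM, and LUM and DPT at 0.93 CPM or less. Whether reads of mouse fibroblasts were in part counted on human POSTN was not tested. COL7A1, the anchoring fibril collagen, had a value of like size with and without that tumour. It was at 131, 100 and 137 CPM after palbociclib and 256, 210 and 274 CPM after vehicle, and the groups did not overlap. The log2 fold change was -1.01 (SE 0.23; edgeR adjusted p = 0.573), or -1.11 (SE 0.27) without vehicle recovery tumour 2, and DESeq2 called it (adjusted p = 0.0261). MMP2, a gelatinase, was at 27.1, 29.996 and 28.3 CPM against 48.1, 98.2 and 43.4 CPM (-1.15; -0.69), and was called by DESeq2 too (adjusted p = 0.0325).

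The list of mesenchymal genes had a median of -0.58 over 19 genes, and of -0.24 without vehicle recovery tumour 2. ZEB2, a repressor of E-cadherin, was at 1.84, 0.648 and 0.762 CPM against 2.44, 6.33 and 4.67 CPM (log2 fold change -2.02; -1.66 without that tumour), whereas PRRX1, another mesenchymal factor, had 1.41 and 1.16. Epithelial junction genes had a median of 0.34 and luminal genes of 0.41, and both were 0.11 without vehicle recovery tumour 2. CDH1, the E-cadherin gene, was at 483, 536 and 604 CPM against 505, 351 and 474 CPM, where the groups overlap. The basement membrane list went from -0.50 to -0.26 (23 of 27 genes below 0 in both), the protease list from -0.45 to -0.19, and the list of YAP and TGF-beta targets from -0.40 to -0.15.

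Interferon-stimulated genes and antigen presentation genes had medians of -0.41 and -0.28, which were -0.16 and -0.10 without vehicle recovery tumour 2. HLA-B, a class I heavy chain, was at 48.0, 45.3 and 56.6 CPM after palbociclib and 69.5, 129 and 71.7 CPM after vehicle. The groups did not overlap, and the log2 fold change was -0.85 (SE 0.21, edgeR adjusted p = 0.573), or -0.50 (SE 0.13) without that tumour. Its partner B2M was at 185, 206 and 228 CPM against 266, 372 and 238 CPM (-0.50; -0.29). Class I genes are alike in sequence, so their reads may have been divided between them.

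Signalling lists had medians smaller in size than that of the hypoxia list, but some members had larger values. TNFAIP3, an NF-kB target, had log2 fold changes of -1.07 and, without vehicle recovery tumour 2, -1.11. The receptor gene MET had -0.61 and -0.42. In the list of AP-1 and early response genes, with medians of 0.02 and 0.10, FOSL1 had -1.27 and -0.93 and FOSB had 0.59 and 0.60. SPRY2, a feedback inhibitor of receptor signalling, was at 71.8, 67.4 and 66.7 CPM against 87.7, 112 and 87.7 CPM, a log2 fold change of -0.48 (SE 0.11) that was -0.35 without vehicle recovery tumour 2. DUSP5, a phosphatase of ERK, had -0.44 and -0.34. HBEGF, a ligand of EGFR, was at 32.3, 22.5 and 28.3 CPM against 42.2, 47.0 and 42.3 CPM (-0.66; -0.61). The list of RAS-MAPK feedback genes had a median of -0.30, and -0.07 without that tumour. The list of receptor tyrosine kinases and ligands was at -0.01 in both, p53 targets at -0.08 and 0.11, and genes linked to CDK4/6 inhibitor resistance at -0.18 and 0.00. NF-kB targets were at -0.22 and -0.21, and at -0.06 without palbociclib recovery tumour 3.

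Over the 32 lists no tested member had an edgeR adjusted p below 0.548 with all tumours or below 0.786 without vehicle recovery tumour 2. The median was below 0 in 24 lists with all tumours and in 17 without that tumour, and it was below -0.2 in 14 and in 6. Vehicle recovery tumour 2 had the highest mean level of the 6 tumours in 24 lists and the lowest in 4. The lists share genes and tumours and were chosen with earlier results of these data known. The counts and shares given for them are therefore a description.

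**Figure D5:**
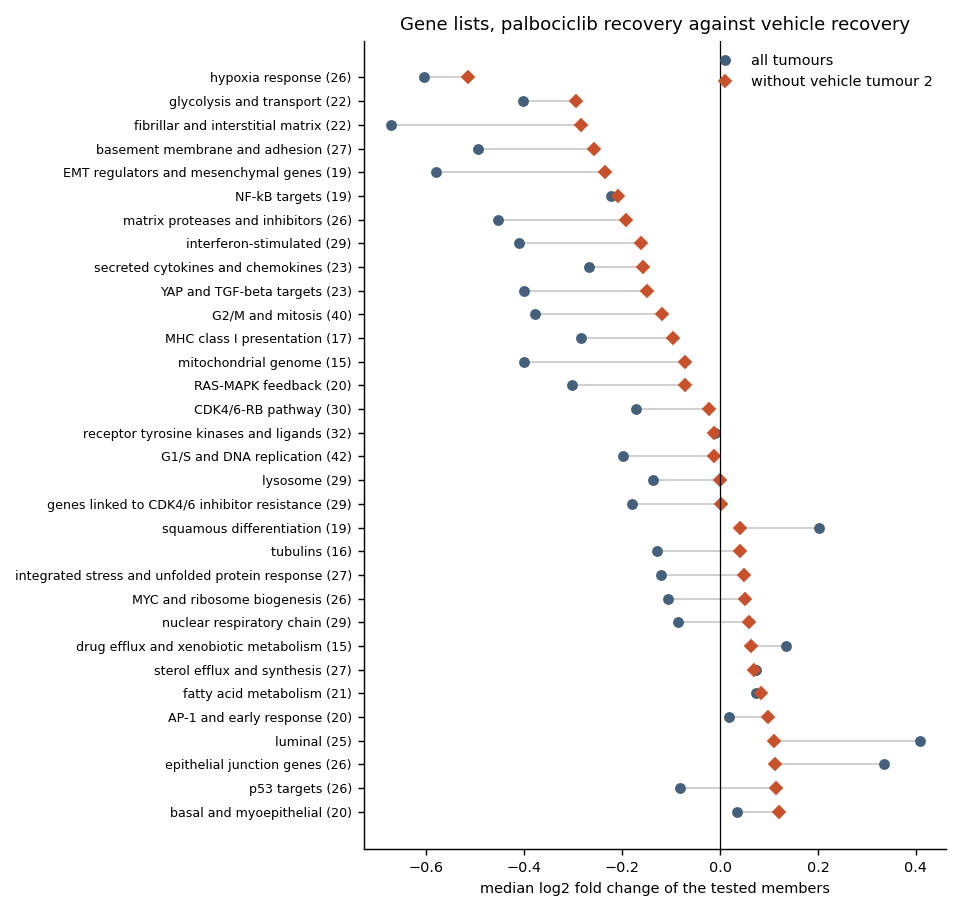
Median log2 fold change (horizontal) of each of the 32 lists, with the number of tested genes in brackets; circles use all tumours and diamonds leave out vehicle recovery tumour 2. The hypoxia list keeps a median of -0.52 and the glycolysis list one of -0.30, while the mitotic list moves from -0.38 to -0.12.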

How the data were processed

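RNA-seq libraries (TruSeq, total RNA) were made from 12 xenograft tumours. The authors deposited 1 file of raw counts per tumour, whole numbers for 58243 human and 54146 mouse gene identifiers and 4 entries that name no gene. Another 713 entries repeated an identifier with the same counts and were dropped. Per the submitters' processing notes, GRCh38, GRCm38, STAR, CASAVA 1.8, cutadapt and edgeR were used, in roles not stated. For the counting program, strand setting and annotation release: not given in the sources used here. Those 4 unnamed entries held 37.0% of all counts in vehicle recovery tumour 2 and 48.7 to 57.3% in the other recovery tumours. They were left out of totals and tests. Of the human identifiers 57980 of 58243 had a symbol in GENCODE 29.

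Human counts were tested with edgeR 4.0.16 (R 4.3.3) as a quasi-likelihood fit of the means of 4 groups over all 12 tumours, with TMM factors, filterByExpr (minimum count 10) and Benjamini-Hochberg adjustment over 18628 genes. Standard errors are the log2 fold change divided by the root of F. The threshold was an adjusted p of 0.05. CPM were scaled by TMM. DESeq2 1.42.0, limma 3.58.1 voom weights, other scalings, filters, smaller sets of tumours and a mouse share covariate were alternatives. DESeq2 and voom were run only with all 12 tumours, so their calls were not checked without vehicle recovery tumour 2. That tumour had the lowest TMM factor, 0.859, and the lowest voom quality weight, 0.113, of the 12. Transcripts were aligned with blastn 2.17.0. Single values per tumour used two-sided exact permutation tests.

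Genes were named by rule: 15 set cell cycle genes, genes passing or with the 10 smallest p with or without vehicle recovery tumour 2, the 8 highest and 8 lowest non-overlapping genes with a mean log2 CPM of at least 1, the 3 smallest p of each list, and neighbours within 500 kb of a passing gene. Only part of the genes that these rules gave are described in the text. Others named were chosen after their values were seen. The members, lists and markers were chosen with earlier results of these data known. Tumours were numbered in accession order.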

Additional observations from a re-analysis of the deposited data

How the results depend on the processing

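The count of 1 gene passing was 20 with DESeq2 (all lower), 2 with voom quality weights, 794 with no low-count filter (212 higher, of 38457 genes, with an infinite prior df against 5.99), and 0 with the stricter filter (TUBBP6 untested), with only the 6 recovery tumours, with those less vehicle recovery tumour 2, and with the mouse share as covariate. Leaving out 1 tumour gave 0 or 1. At an unadjusted p under 0.05 edgeR found 1613 genes, 1136 with the stricter filter, 800 with 6 tumours, 780 with 5, and 840 with the covariate, and leaving out 1 tumour gave 688 without vehicle recovery tumour 2, 853 and 1029 without palbociclib recovery tumours 2 and 1, 1719 without palbociclib recovery tumour 3, and 2830 and 3352 without vehicle recovery tumours 1 and 3. Scaling to human totals alone moved the median of all genes to 0.07. Of 149 named genes that were checked 10 changed sign, with values from -0.585 (FBL) to 0.646 (EMCN) with all tumours, and none of them passed there. The neighbours of TUBBP6 other than AC091812.1 were not among the 149. Some of these also changed sign without vehicle recovery tumour 2, such as VOPP1 (from -0.39 to 0.01) and PHKG1 (from 0.10 to -0.25). With the covariate TOP2A was 0.0152 and CDKN1B 0.0295. With human totals CCND1 was 0.0485 and CDKN1B 0.0444, and with the stricter filter 0.0207 and 0.0134. With quality weights CCND3 was 0.0453, CDK4 0.0512, E2F1 -0.0881 and the endothelial gene EMCN -0.0964. With DESeq2 E2F1 was -0.00551 and CDKN1A -0.0159, and with RLE factors -0.00549 and -0.0158. With 5 recovery tumours CCND1 was 0.0049, CCND3 0.123, CDK4 0.118, E2F1 -0.0456, CDKN2C 0.0282 and the ribosome gene FBL 0.00527. Leaving out 1 tumour gave -0.115 to 0.0407 for CCND1, -0.284 to 0.122 for CCND3, -0.549 to 0.117 for CDK4, -0.0731 to 0.0819 for E2F1, -0.179 to 0.143 for CDKN1A, -0.0871 to 0.0513 for CDKN1B, -0.806 to 0.027 for CDKN2C and -0.813 to 0.004 for FBL. The cause was not tested. Of the 149 checked genes, 139 kept their sign in every alternative run. The labels describe no pairing of palbociclib with vehicle tumours, so no paired analysis was made. With 3 tumours a group and 5 to 7 TUBBP6 counts in each palbociclib tumour, small differences and low genes are beyond this depth.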

Other observations

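Secreted factors and chemokines, a list of 23 tested genes, had a median log2 fold change of -0.27, which was -0.16 without vehicle recovery tumour 2, -0.61 without palbociclib recovery tumour 1 and -0.17 without palbociclib recovery tumour 3. CXCL1, a neutrophil chemokine, was at 47.0, 37.3 and 20.1 CPM after palbociclib and 59.1, 72.3 and 70.9 CPM after vehicle (log2 fold change -0.95; -0.90 without vehicle recovery tumour 2). The alarmin gene IL33 had the opposite sign, at 30.2, 12.4 and 15.5 CPM against 16.4, 8.05 and 4.67 CPM (0.97; 0.83), and its groups overlap. Neither passed (edgeR adjusted p = 0.582 for CXCL1 and 0.573 for IL33). KRT6A, a keratin of stressed epithelium, was at 49.5, 73.8 and 549 CPM against 76.5, 146 and 90.8 CPM (log2 fold change 1.099; 1.42 without vehicle recovery tumour 2). Palbociclib recovery tumour 3 was the highest of the 6, and the other palbociclib recovery tumours were below every vehicle recovery tumour.

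Among the other genes that DESeq2 called, SRGN, the proteoglycan serglycin, was at 1.75, 0.833 and 1.69 CPM against 5.67, 21.2 and 4.28 CPM (edgeR log2 fold change -2.85; -1.79 without vehicle recovery tumour 2). RGS17, a regulator of G-protein signalling, was at 6.77, 5.28 and 5.84 CPM against 10.6, 20.4 and 14.0 CPM (-1.33; -1.03). AADAT, an aminotransferase of lysine and tryptophan breakdown, was at 10.9, 8.42 and 9.65 CPM against 15.8, 18.5 and 14.9 CPM (-0.77; -0.67). In all 3 no palbociclib recovery tumour reached a vehicle recovery tumour. Transcripts of the mitochondrial genome had a median of -0.40 over 15 genes, of -0.07 without vehicle recovery tumour 2 and of -0.66 without vehicle recovery tumour 1, while the mitochondrial share of counts was 1.33 to 2.29% after palbociclib and 0.674 to 2.64% after vehicle.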
